A study of Mus musculus with 16 samples.

Results

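The stefin A and Serpinb3 genes of the mouse encode protease inhibitors of the epidermis and of some white blood cells. Here 8 genes were followed by name, the stefins Stfa1, Stfa2, Stfa3 and Stfa2l1 and the serpins Serpinb3a, Serpinb3b, Serpinb3c and Serpinb3d, in counts of 23930 RNA targets from whole mouse skin. They were chosen with earlier results of these data in view, so their levels and differences are described and not tested. Stfa2 and Stfa2l1 matched no target by symbol and were not analysed here. Of the 6 genes with a target, 4 had enough reads to enter the fit across 13633 targets (Stfa1, Stfa3, Serpinb3a and Serpinb3b), and Serpinb3c and Serpinb3d are given as raw counts.

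The study asked what loss of MCPIP1 in keratinocytes, in myeloid cells or in both does to the skin. MCPIP1, also called Regnase-1, is the endoribonuclease encoded by Zc3h12a, and it degrades mRNAs of inflammatory mediators. All 16 mice were 12 weeks old and homozygous for a floxed allele, written Zc3h12a(loxP/loxP), and each of the 4 groups held 4 mice that the labels number as separate animals. Control mice had the floxed allele alone. EKO mice had in addition Krt14Cre(Tg/Wt), driven by the Krt14 promoter of basal keratinocytes. In MKO mice the added allele was LysMCre(Tg/Wt), which acts in myeloid cells such as macrophages and neutrophils. EMdKO mice had the pair of Cre alleles. No Cre-positive mouse without the floxed allele was among these groups. Zc3h12a counted 19.4 to 30.3 CPM (reads scaled so that libraries of unequal depth can be compared) in controls, 7.07 to 11.7 in EKO, 17.1 to 35.01 in MKO and 4.41 to 5.71 in EMdKO. The level in MKO skin overlapped that of controls, and the level in EKO and EMdKO skin did not.

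Stefins of type A are small cytosolic inhibitors that block cysteine proteases of the papain family, such as cathepsins B, L and S. Their human counterpart, cystatin A, is cross-linked into the cornified envelope of the outer epidermis. Serpins work differently. A serpin offers a loop as bait, and the protease that cuts it is trapped. SERPINB3 and SERPINB4, the human relatives of the mouse Serpinb3 genes, stay inside the cell and inhibit cysteine cathepsins and chymotrypsin-like serine proteases respectively. They are abundant in squamous epithelium and psoriatic skin. The mouse has several near-copies of each gene side by side, stefins on chromosome 16 and serpins on chromosome 1, where the human genome has fewer.

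The 250 bases before the annotated start of the 4 fitted genes are shown because these genes varied together between mice, and that of Serpinb3c because it is nearly the same sequence in front of a gene with almost no reads. They are from RefSeq, build GRCm38.p6, 5′ to 3′ on the strand of the gene. Stfa1 is chr16:36276898-36277147 on the plus strand, Stfa3 is chr16:36455393-36455642 on the minus strand, and Serpinb3a, Serpinb3b and Serpinb3c are chr1:107052304-107052553, chr1:107161115-107161364 and chr1:107278372-107278621 on the minus strand. Capitals mark every match to a motif named in the next paragraph.
Stfa1: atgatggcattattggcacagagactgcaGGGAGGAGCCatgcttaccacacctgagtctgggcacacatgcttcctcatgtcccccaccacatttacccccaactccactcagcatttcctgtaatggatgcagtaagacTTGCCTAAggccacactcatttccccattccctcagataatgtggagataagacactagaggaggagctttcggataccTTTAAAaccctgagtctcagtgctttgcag
Stfa3: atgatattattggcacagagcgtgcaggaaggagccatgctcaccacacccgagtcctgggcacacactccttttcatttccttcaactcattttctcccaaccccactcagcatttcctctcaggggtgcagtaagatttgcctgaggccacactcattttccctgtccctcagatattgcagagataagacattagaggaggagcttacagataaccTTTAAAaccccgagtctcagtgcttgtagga
Serpinb3a: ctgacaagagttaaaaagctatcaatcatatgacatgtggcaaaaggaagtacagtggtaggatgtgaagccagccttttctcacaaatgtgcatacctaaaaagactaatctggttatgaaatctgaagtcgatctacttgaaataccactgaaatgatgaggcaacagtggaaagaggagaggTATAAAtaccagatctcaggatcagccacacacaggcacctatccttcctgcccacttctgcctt
Serpinb3b: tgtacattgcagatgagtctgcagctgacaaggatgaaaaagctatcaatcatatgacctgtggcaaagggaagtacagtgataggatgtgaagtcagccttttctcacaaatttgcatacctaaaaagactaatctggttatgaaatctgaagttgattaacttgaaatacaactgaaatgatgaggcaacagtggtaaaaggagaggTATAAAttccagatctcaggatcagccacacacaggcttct
Serpinb3c: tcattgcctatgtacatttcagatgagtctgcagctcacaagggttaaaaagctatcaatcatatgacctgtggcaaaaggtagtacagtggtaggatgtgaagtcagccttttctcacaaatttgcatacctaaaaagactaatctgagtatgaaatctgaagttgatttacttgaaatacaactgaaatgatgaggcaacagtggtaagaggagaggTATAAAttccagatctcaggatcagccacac

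The Serpinb3a, Serpinb3b and Serpinb3c windows aligned at 92.5 to 95.4% identity over 216 to 240 bases, with overhanging ends left out. All 3 hold the letters TATAAA, which begin 65, 41 and 31 bases before the annotated start in Serpinb3a, Serpinb3b and Serpinb3c, so the annotated starts of near-identical sequences differ in place. Serpinb3d holds TATAAA on the opposite strand, 40 bases before its start, and its window could be aligned with the other serpins at only 46.6 to 48.5% identity with the ends counted. The Stfa1 and Stfa3 windows were 83.9% identical, and all 4 stefins hold TTTAAA between 33 and 29 bases before the start. These 2 motifs were chosen after the sequences were seen. TATAAA is in 12.4% and TTTAAA in 12.1% of the 32851 windows of the same length in the table. Of the other motifs searched on both strands, the STAT form TTCNNNGAA (in 7.02% of windows) and the AP-1 form TGANTCA (6.75%) are in none of the 8 windows. A short NF-kB form (17.6%) is in that of Stfa1. The C/EBP form TTGCNNAA (9.56%) is in those of Stfa1 and Serpinb3d. No match overlaps another, and a match is a run of letters, not a measured site.

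Likeness also bears on the counts. Among the longest coding transcripts of GENCODE vM21, Stfa1 and Stfa3 were 80.1% identical where they align, and Serpinb3a, Serpinb3b and Serpinb3c were 91.7 to 93.7% identical. Runs of 50 bases that also occur in the transcript of another gene made up 26.9% of Stfa1 (shared with BC100530 and BC117090), 15.1% of Serpinb3a, 14.7% of Serpinb3b and 0.0% of Stfa3. The kit amplifies 1 short stretch of each transcript, and where those stretches lie is not given in the sources used here. The split of reads between Stfa1 and its copies and among the Serpinb3 copies is therefore uncertain, while Stfa3 has no such shared run. No library listed a read as ambiguous or as aligned to more than 1 place.

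Stefin A RNA was high in the skin of 3 of the 4 EKO mice. Stfa3 counted 12.4, 721, 992 and 698 CPM in EKO mice 1 to 4, against 43.0, 47.3, 16.7 and 7.62 CPM in control mice 1 to 4. EKO mouse 1 lay inside the control range and the other 3 lay far above it. EKO mouse 1 also had the highest Zc3h12a of its group (11.7 CPM, others 7.07 to 8.41), the most hair markers (7963 CPM, others 77.9 to 2153) and the most muscle markers (60160 CPM, others 27330 to 42640), whose part in the result was not tested. The fitted difference was 4.41 ± 0.91 (SE) on the log2 scale, and 4.81 ± 0.60 without EKO mouse 1. Stfa1 counted 0.516, 50.1, 153 and 21.8 CPM in the EKO mice and 4.58, 36.5, 0.841 and 0.25 CPM in the controls. Again EKO mouse 1 was low, but here control mouse 2 was as high as an EKO mouse, so the groups overlapped also without EKO mouse 1. The difference of Stfa1 between EKO and control was 2.44 ± 1.16 with all mice, 2.85 ± 1.00 without EKO mouse 1 and 4.91 ± 1.25 without control mouse 2, and it fell to 1.22 without EKO mouse 3, the highest of all 16.

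The Serpinb3 genes were high in the same 3 EKO mice. Serpinb3a was all but absent from control skin, with 1, 1, 3 and 0 reads in control mice 1 to 4. The EKO mice had 1, 275, 504 and 172 reads, or 0.103, 24.0, 61.2 and 22.6 CPM. EKO mouse 1 stood with the controls. Pooled over the mice of each group, the EKO level was 173.6 times the control level, with a 95% interval of 74.1 to 536 for counting error only (exact, and wide because the controls held 5 reads). EKO mouse 3 supplied 504 of the 952 reads, and the fitted log2 difference of 7.39 was 6.60 without it and 8.05 without control mouse 3. Serpinb3b was present in every control, at 1.36, 2.88, 4.30 and 4.998 CPM, and counted 2.17, 20.8, 30.1 and 20.6 CPM in EKO. The difference was 2.43 ± 0.56 on the log2 scale, and 2.80 ± 0.37 without EKO mouse 1. Both serpins therefore had EKO mouse 1 within the control range, and the other 3 EKO mice above every control.

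**Figure D1:**
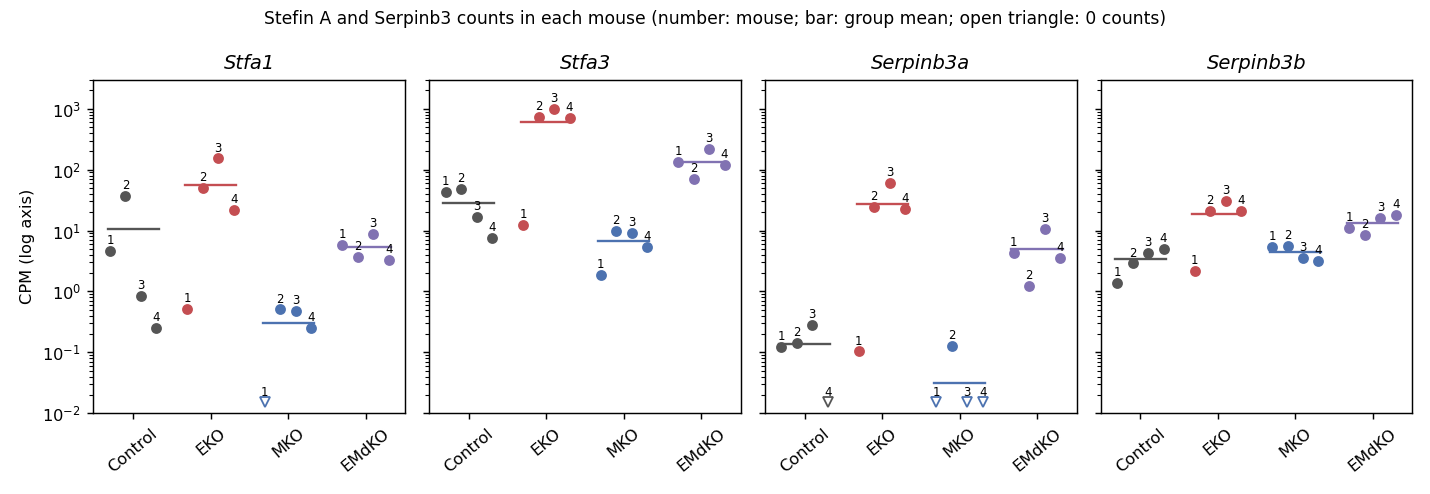
CPM (log axis) of the 4 fitted genes in each of the 16 mice, by group. Points are mice with their number, bars are group means and open triangles at the bottom are libraries with 0 reads. EKO mouse 1 lies within the control range in all 4 panels while EKO mice 2 to 4 reach 698 to 992 CPM of Stfa3.

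In MKO skin the stefins leaned low and Serpinb3b stayed in the control range or just above it. Stfa3 counted 1.88, 9.98, 9.18 and 5.40 CPM in MKO mice 1 to 4, a difference from control of -2.10 ± 0.87 on the log2 scale. The highest 2 MKO mice lay above the lowest control, so the groups overlapped. Stfa1 had 0, 4, 4 and 2 reads in the MKO mice against 37, 254, 9 and 2 in the controls, a fitted difference of -4.94 ± 1.64 that shrank to -2.47 ± 1.57 without control mouse 2. Serpinb3b counted 5.33, 5.56, 3.58 and 3.14 CPM in MKO, a difference of 0.36 ± 0.57, and the MKO and control ranges overlapped. Serpinb3a had 1 read in all 4 MKO libraries together, which allows up to 0.182 CPM (exact Poisson limit at 95%), against 5 reads in the controls.

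EMdKO skin took a place between EKO mice 2 to 4 and the controls. Stfa3 counted 133, 71.4, 218 and 118 CPM in EMdKO mice 1 to 4, above every control and below EKO mice 2 to 4. It differed from control by 2.24 ± 0.83 and from EKO by -2.16 ± 0.82 on the log2 scale. Serpinb3a counted 4.23, 1.21, 10.6 and 3.57 CPM. Its pooled level was 34.4 times that of controls (14.5 to 107, counting error only) and 0.198 times that of EKO (0.17 to 0.231, again counting error only). The spread between mice is wider. The fitted log2 difference from EKO was -2.45, and it was -1.66 without EKO mouse 3 and -3.14 without EMdKO mouse 3, while the difference from control of 4.94 was 4.25 without EMdKO mouse 3 and 5.61 without control mouse 3. Serpinb3b counted 10.9, 8.60, 16.1 and 18.1 CPM, 1.97 ± 0.56 above control and -0.46 ± 0.51 from EKO, the smallest EMdKO difference from EKO among the 4 genes. Stfa1 counted 5.72, 3.64, 8.85 and 3.26 CPM and was the exception. Its fitted difference from control was -0.94 ± 1.16, and it turned to 1.53 without control mouse 2.

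Against MKO, which shares its myeloid Cre, EMdKO skin was higher for all 4 genes in every mouse. The difference was 4.34 ± 0.93 on the log2 scale for Stfa3, 4.00 ± 1.66 for Stfa1 and 1.61 ± 0.55 for Serpinb3b. For Serpinb3a the pooled ratio was 156.5 with an interval of 27.8 to 6210, since MKO held 1 read. The comparisons with a common group share those mice and are not independent of each other. Beyond the sum of both single-knockout differences, the fitted EMdKO term was -0.07 ± 1.20 for Stfa3, 1.57 ± 2.07 for Stfa1 and -0.82 ± 0.77 for Serpinb3b. For Serpinb3a, with 1 read in MKO, it is not given. Given these standard errors, the sign of the term was not settled for any of the other genes. With 1 library left out it ranged from -0.48 to 0.28 for Stfa3 and from -0.91 (without control mouse 2) to 2.79 for Stfa1, and from -1.19 (without EKO mouse 1) to -0.48 for Serpinb3b.

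**Figure D2:**
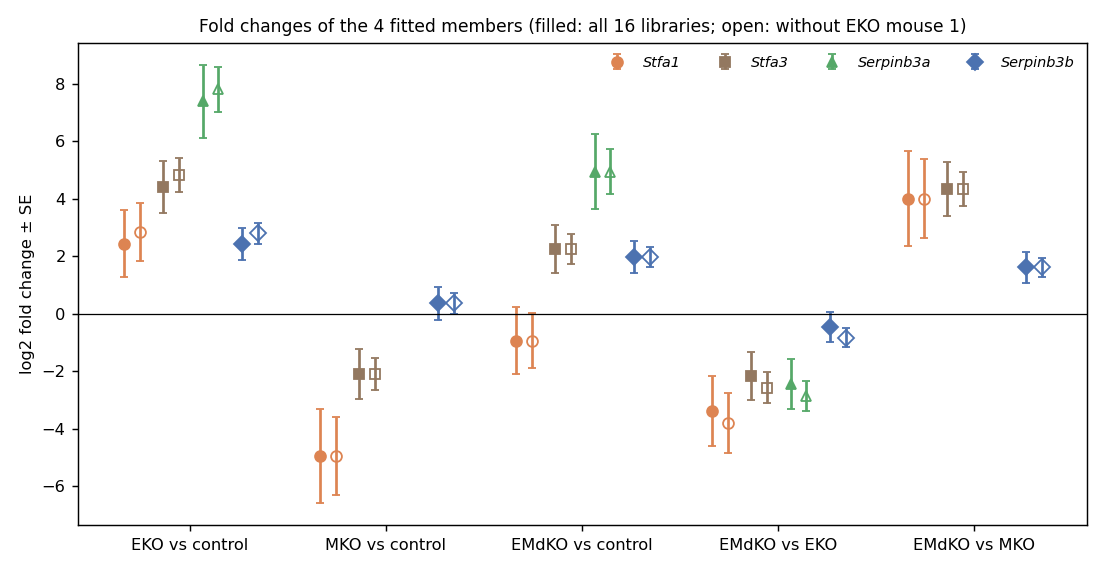
Log2 fold change with its standard error (edgeR quasi-likelihood fit) of the 4 fitted genes in 5 comparisons, with all 16 libraries (filled) and without EKO mouse 1 (open). Serpinb3a is left out of the comparisons with MKO, which held 1 read of it; Stfa3 and Serpinb3b lie above 0 in EKO and EMdKO against control, and Stfa1 does not in EMdKO.

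The same order can be read in the family sums. Stfa1 and Stfa3 together, of which Stfa3 supplied most reads, averaged 39.2 ± 34.2 CPM (SD, n = 4) in control skin, 662 ± 473 for EKO, 6.92 ± 3.97 for MKO and 141 ± 63.4 for EMdKO. The Serpinb3 targets together averaged 3.54 ± 1.62, 45.5 ± 36.5, 4.49 ± 1.22 and 18.3 ± 7.41 CPM in the same order. For the stefins the controls overlapped every other group, since control mouse 2 at 83.9 CPM lay above EMdKO mouse 2 at 75.0, and MKO at up to 10.5 CPM lay below every EKO and EMdKO mouse. For the serpins EMdKO at 9.81 to 26.7 CPM lay above every control and MKO mouse, control and MKO overlapped, and EKO overlapped every other group through mouse 1 at 2.27 CPM. Without it EKO averaged 879 ± 232 CPM of stefin A and 59.9 ± 27.4 of Serpinb3 (SD, n = 3). In whole tissue, more RNA per cell and more cells of a kind cannot be told apart.

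Calls across all genes were few. With the 4 EKO mice, edgeR called 0 of 13633 targets between EKO and control after Benjamini-Hochberg adjustment (0.0%), and hence 0 of the 4 genes. At an unadjusted p under 0.05 it listed 3 of the 4 beside 6.9% of all targets, and DESeq2 called 3 of the 4 as higher beside 0.345%. Without EKO mouse 1 edgeR called 3 of the 4 (Stfa3, Serpinb3a and Serpinb3b, all higher), beside 0.821% of all targets called higher. In MKO against control edgeR called 0 of 4 (0.0293% of targets), listed the stefins at an unadjusted p under 0.05 (9.58%), and DESeq2 called Stfa1 as lower (0.632%). In EMdKO against control it called 0 of 4 (0.0293%), 3 at an unadjusted p under 0.05 (8.16%) and 2 as higher with DESeq2 (0.294%). EMdKO against EKO gave 0 of 4 (0.0147%), with 3 at an unadjusted p under 0.05 (6.59%) and 0 with DESeq2 (0.0661%). EMdKO against MKO gave 0 of 4 (0.00734%), 4 at an unadjusted p under 0.05 (7.42%) and 2 as higher with DESeq2 (0.83%). The term beyond the sum of single knockouts gave 0 of 4 under all of these, beside 0.0%, 3.41% and 0.022%. Since the genes were chosen from such contrasts, these counts are given only as a record.

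By separation of the mice, 3 of the 4 genes (not Stfa1) were higher in every EMdKO mouse than in every control, which holds for 2.23% of all tested targets. All 4 separated EMdKO from MKO, as 3.71% of targets did in that direction. With EKO mouse 1 none of the 4 separated EKO from control (1.03% of targets did). Without it 3 of 4 did (5.66%), and all 4 were lower in EMdKO than in the remaining EKO mice (5.95%). EKO mouse 1 was the lowest of its group for these same genes, so leaving it out by itself favours such separation. The counts without it are a description only.

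Serpinb3c and Serpinb3d were hardly read. Serpinb3c had 3 reads in 16 libraries, 1 in a control and 2 in an MKO mouse. Its 0 reads in the 4 EKO libraries allow up to 0.0811 CPM (3 counts over the group), where the Serpinb3a target had 952 reads. Serpinb3d had 4 reads, 3 in EKO mice and 1 in an EMdKO mouse, and its 0 reads allow up to 0.0889 CPM in controls and 0.0979 in MKO. Whether these targets would register their transcripts if present was not tested.

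Across the 16 libraries the 4 genes varied together to different degrees. On log2 CPM, Stfa3 and Serpinb3a had a Pearson r of 0.945 (Spearman rho 0.972), though they lie on different chromosomes and belong to different inhibitor families. Stfa1 and Stfa3 had 0.92 (0.935) and Serpinb3a and Serpinb3b 0.905 (0.797). Stfa1 and Serpinb3b were the least alike pair, at 0.597 (0.503). After each group's mean was taken out, the 3 closer pairs still had r of 0.897, 0.897 and 0.86, and without EKO mouse 1 they had 0.943, 0.917 and 0.908. These correlations describe 16 libraries that share group, tissue makeup and scaling, and near-copies may share reads.

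The genes whose pattern was most like the stefins over the 16 libraries were led by S100a9 (r = 0.964), a calprotectin subunit made by neutrophils and stressed keratinocytes, and Chil1 (0.953), a chitinase-like protein. Then came Rptn (0.945), the cornified-layer protein repetin, the epithelial protease gene Prss27 (0.944), Rbp2 (0.939), Pla2g4e (0.934), the stress keratin Krt16 (0.931) and Car12 (0.925). For the serpins the list was led by Hrnr (0.973), the cornified-layer protein hornerin. It went on with the IL-36 cytokine genes Il1f8 (0.966) and Il1f6 (0.953), the transporter gene Slc5a1 (0.961), Lrrc28 (0.956), the clade B serpin Serpinb12 (0.951), the suprabasal keratin Krt1 (0.947) and Slc37a2 (0.946). The median r over all tested genes was -0.02 for the stefins and -0.03 for the serpins. The lists of 8 have no gene in common.

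Markers of other cells moved with part of these levels. S100a9 counted 0.826, 79.6, 316 and 26.9 CPM in EKO mice 1 to 4, and 2.85, 24.7, 2.34 and 1.75 in the controls, so control mouse 2 was high for S100a9 as for Stfa1. That mouse also had the highest Csf3r, the G-CSF receptor of neutrophils, at 29.8 CPM where the other 15 libraries had 2.50 to 9.53. Summed over the 11 neutrophil-defining markers with a target, control mouse 2 had 47.5 CPM and the other controls 4.62 to 9.44. EKO mice 1 to 4 had 7.74, 12.9, 16.5 and 6.04 CPM, MKO 8.28 to 35.9 and EMdKO 9.14 to 12.4. Csf3r and Retnlg supply most of these sums. Cxcr2, a chemokine receptor of neutrophils, had 0, 24, 18 and 11 reads in EKO mice 1 to 4, and 22 in control mouse 2. It was thus low and high in the same EKO mice as the inhibitors. In EKO mice 1 to 4, Csf3r had 4.75, 6.54, 8.01 and 3.15 CPM and Retnlg had 2.27, 0.96, 1.82 and 0.263. Neither was lowest in EKO mouse 1. Ly6g and Mpo had 1 read each in all 16 libraries, Elane 9, Ltf 14 and Ngp 20. The wider list of 28 neutrophil markers with a target, which includes S100a8, S100a9, Asprv1, Hp and G0s2, summed to 394 to 566 CPM in controls and to 412, 711, 1073 and 492 CPM in EKO mice 1 to 4. It gave 326 to 502 CPM in MKO and 382 to 553 in EMdKO. Most of these wider sums came from genes outside the 11 defining markers. Asprv1 alone averaged 81.1 ± 30.3 CPM in controls and 193.5 ± 112.7 in EKO (SD). Which cells supplied the wider sums was not tested. What part neutrophils had in the stefin levels of control mouse 2 or of the EKO mice was not tested.

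Keratinocyte markers of the outer layers were high in the same 3 EKO mice. The 10 suprabasal markers with a target summed to 10700 CPM in EKO mouse 1 and to 28350, 26860 and 30550 in EKO mice 2 to 4, against 9019 to 19790 in controls. They summed to 10190 to 15650 CPM in MKO and 12530 to 20810 in EMdKO. The 9 stress keratinocyte markers summed to 1249 to 2416 CPM in controls, 939 in EKO mouse 1, 1673 to 3176 in the other EKO mice, 360 to 1113 in MKO and 1317 to 1647 in EMdKO, so MKO was below every control for this sum as it was low for the stefins. Krt17 alone made up most of it in both groups, at 1459 ± 405 CPM in controls and 695 ± 296.5 in MKO (SD). Of the 8 stress markers in the fit, 0 had a positive difference in MKO against control. The 8 basal markers summed to 6979 to 13520 CPM in controls. They gave 7100 CPM in EKO mouse 1 and 12620, 14370 and 12860 in EKO mice 2 to 4, so basal markers were also lowest in EKO mouse 1. Basal sums were 7339 to 11600 CPM in MKO and 10020 to 13430 in EMdKO. The 18 measured cytokine genes (families of IL-6, IL-17, IL-36 and IL-1, with others such as Tnf, Il22 and Il23a) summed to 107 to 195 CPM in controls and 119 in EKO mouse 1. They gave 601 to 702 CPM in EKO mice 2 to 4, 109 to 211 in MKO and 289 to 474 in EMdKO. Il1f9 of the IL-36 family averaged 234 ± 120.8 CPM (SD) in EKO and 66.5 ± 19.0 in controls. Il1f5 of the same family averaged 122 ± 60.9 CPM (SD) in EKO. The part of these cells and cytokine genes in the inhibitor levels was not tested.

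**Figure D3:**
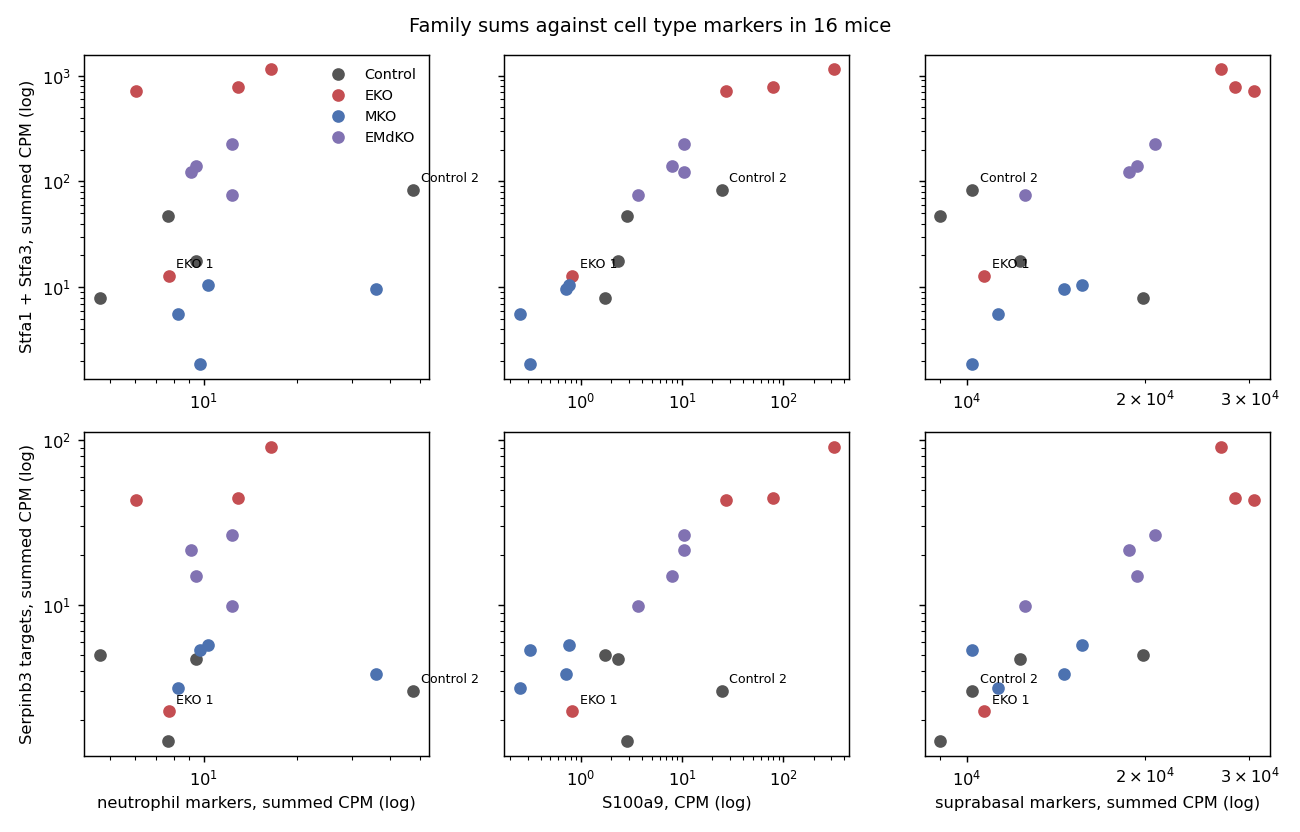
Summed CPM of Stfa1 and Stfa3 (top) and of the Serpinb3 targets (bottom) against 11 neutrophil-defining markers, S100a9 and 10 suprabasal keratinocyte markers in 16 mice; all axes are logarithmic and colours are groups. EKO mouse 1 and control mouse 2 are labelled, and control mouse 2 is high for the stefins and for neutrophil markers at 47.5 CPM but not for the serpins.

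Hair follicle, muscle and other leukocyte content varied too. The 16 hair shaft and root sheath markers ranged from 23.7 to 43230 CPM among controls, 77.9 to 7963 in EKO, 10.4 to 631 in MKO and 16.8 to 8621 in EMdKO. Against control, 0 of the 16 had a positive difference in EKO, MKO or EMdKO. Their medians were -2.24, -6.94 and -3.33 on the log2 scale. By edgeR, 1, 15 and 4 of them had an unadjusted p under 0.05, beside 6.9, 9.58 and 8.16% of all targets. What part hair content had in the stefin and stress marker levels of MKO skin was not tested. The 11 muscle markers ranged from 22590 to 110800 CPM over all mice. The 13 macrophage markers gave 716 to 1063, 513 to 1007, 595 to 789 and 544 to 756 CPM in the order control, EKO, MKO and EMdKO, and the 9 mast cell markers 154 to 297, 187 to 200, 193 to 354 and 157 to 291. Of the marker genes of these lists that entered the fit, edgeR called 1, the macrophage receptor gene Marco, which rose in MKO by 4.77 ± 0.52 on the log2 scale (BH adjusted p = 0.00123) and in EMdKO by 5.29 ± 0.52 (BH adjusted p = 0.000253) against control in its quasi-likelihood test.

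Relatives of the members on the same chromosomal stretches were compared next. Ordered along chromosome 1, the coding genes run Serpinb5, Serpinb12, Serpinb13, Serpinb3a, Serpinb3d, Serpinb3b, Serpinb3c, Serpinb11, Serpinb7, Serpinb2, Serpinb10 and Serpinb8, with no other coding gene between them in RefSeq. In EKO against control the 3 genes before Serpinb3a had log2 differences of 0.40 ± 0.29, 2.84 ± 0.58 and 1.07 ± 0.62, and the 5 genes after Serpinb3c had -0.16 to 0.24. Serpinb12, a serpin of the outer epidermis that inhibits trypsin-like proteases, counted 10.5, 97.0, 125.6 and 174 CPM in EKO mice 1 to 4 and 7.34 to 22.4 in controls. It did not pass in the edgeR quasi-likelihood test (BH adjusted p = 0.205), and did without EKO mouse 1 (3.21 ± 0.36, BH adjusted p = 0.000462). On chromosome 16 the measured relative is Csta1, another cystatin A gene. It counted 8.15 to 65.3 CPM in EKO and 7.77 to 26.8 in controls, a difference of 1.20 ± 0.49 (BH adjusted p = 0.679, edgeR quasi-likelihood). Apart from Stfa1, the stefin genes between Csta1 and Stfa3 matched no target or had too few reads for the fit.

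**Figure D4:**
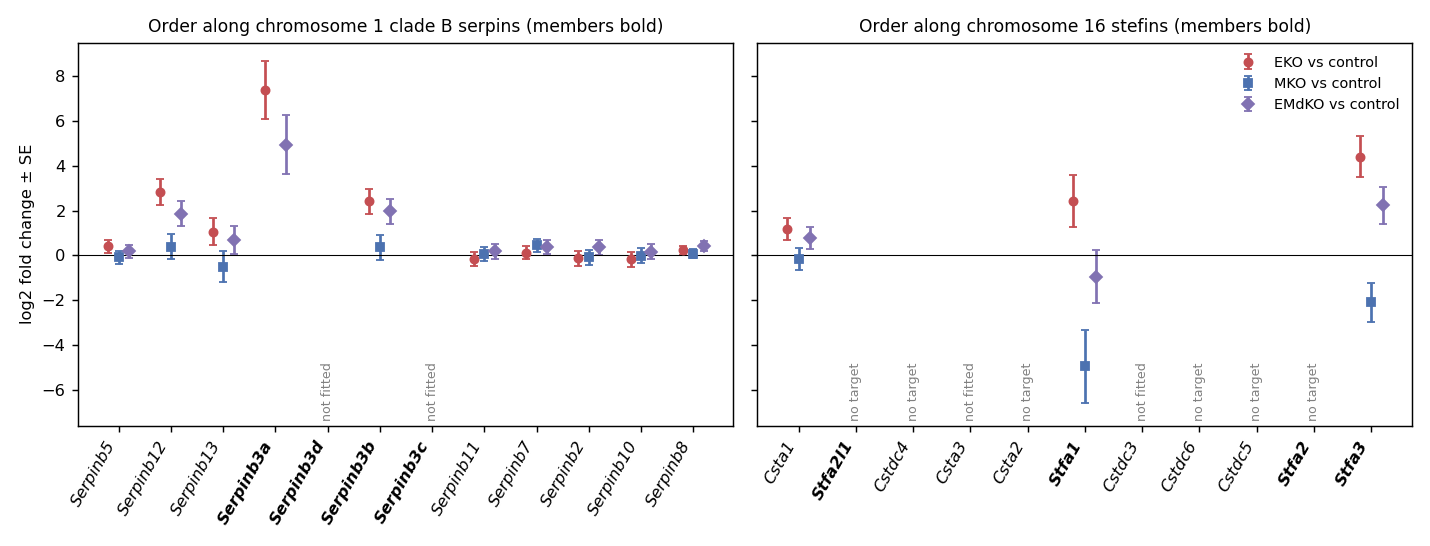
Log2 fold change with its standard error against control for EKO, MKO and EMdKO, with genes in chromosomal order (spacing not to scale; names in bold are the stefin A and Serpinb3 genes followed here). Serpinb3a in MKO is left out for its 1 read, and the genes after Serpinb3c lie between -0.16 and 0.46 in all 3 comparisons.

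The wider pools of inhibitors and of proteases were set beside the members. Of 15 other clade B serpins in the fit, edgeR called 0 in any comparison. Their median difference in EKO against control was 0.12 on the log2 scale, where all tested targets had -0.03, and 1 of them had an unadjusted p under 0.05. In EMdKO against control the median was 0.18 (all targets -0.02), and in MKO against control -0.01 (all targets 0.00). Of 6 stefin and cystatin relatives in the fit, 0 were called, 5 were positive in EKO with a median of 0.54, and 3 had an unadjusted p under 0.05. These were Fetub, which encodes the protease inhibitor fetuin-B (3.31 ± 0.67, 18.0 ± 14.7 against 1.81 ± 0.72 CPM), Csta1, and Cst6, which encodes the cornification-linked cystatin M/E (0.90 ± 0.39, 787 ± 450.3 against 422 ± 50.2 CPM, SD, n = 4). Cst6 in MKO was 204 ± 89.1 CPM, a difference of -1.05 ± 0.39 from control (BH adjusted p = 0.383), and Cstb, encoding stefin B, was 184 ± 40.1 against 372 ± 137 CPM (-1.01 ± 0.32, BH adjusted p = 0.331, edgeR quasi-likelihood). In EMdKO against control the list's median was 0.37 with 4 of 6 positive, and in EMdKO against MKO it was 1.01.

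DESeq2 called Fetub (3.32 ± 0.61, adjusted p = 0.000112) and Serpinb12 (2.85 ± 0.52, adjusted p = 8.26e-05) in EKO against control, and Cst6 in EMdKO against MKO (1.74 ± 0.38, adjusted p = 0.00187). Without EKO mouse 1, edgeR called the same 2 genes in EKO (Fetub by 3.69 ± 0.48, BH adjusted p = 0.00106), Cst6 in EMdKO against MKO (BH adjusted p = 0.0119), and Serpinb12 in EMdKO against control (1.87 ± 0.34, BH adjusted p = 0.0264).

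The lists of cysteine and serine proteases gave no call by edgeR. Which of these proteases the stefin A and Serpinb3 members block was not tested. All 11 cysteine cathepsin and legumain genes were in the fit, and 0 were called in any comparison by edgeR. Their median was -0.09 on the log2 scale in EKO, -0.19 in MKO and -0.19 in EMdKO, each against control. At an unadjusted p under 0.05 there were 0, 2 and 2 of them. In MKO they were Ctsb, a cathepsin that stefins inhibit, at 565 ± 84.4 against 861 ± 351 CPM in control, and Lgmn, which encodes the asparaginyl protease legumain, at 64.0 ± 13.7 against 82.9 ± 13.9 CPM (SD, n = 4). Ctsl, next in p, was 580 ± 45.6 against 776 ± 230.4 CPM. Lgmn was 57.8 ± 3.12 CPM in EMdKO against 82.9 ± 13.9 in control (-0.52 ± 0.16, BH adjusted p = 0.392), and DESeq2 called it between EMdKO and EKO (-0.71 ± 0.17, adjusted p = 0.0393). Of 6 neutrophil and mast cell serine proteases in the fit, including Prtn3, the mast cell tryptase gene Tpsb2 and the chymase gene Mcpt4, 0 were called and 0 had an unadjusted p under 0.05 against control. Their medians were -0.09, 0.14 and -0.02 in EKO, MKO and EMdKO.

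Of 18 other epidermal protease inhibitors in the fit, 0 were called by edgeR in any comparison, with medians of 0.04, -0.14 and -0.11 and 4, 5 and 3 genes at an unadjusted p under 0.05 in EKO, MKO and EMdKO against control. Slpi, the secretory inhibitor of neutrophil elastase, averaged 0.0988 ± 0.119 CPM in MKO and 2.18 ± 2.52 in controls. Serpina9 averaged 0.397 ± 0.374 against 4.95 ± 6.03 CPM (-3.60 ± 1.02, BH adjusted p = 0.331), and DESeq2 called it (adjusted p = 0.0257). The controls spread widely for both genes.

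**Figure D5:**
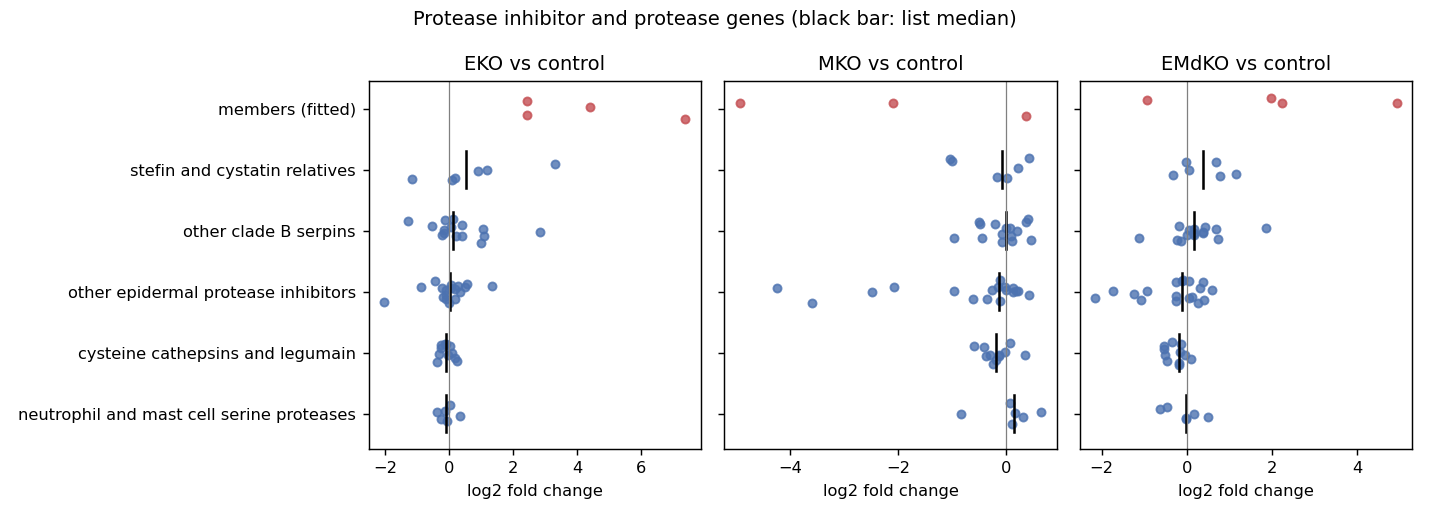
Log2 fold change against control of the fitted stefin A and Serpinb3 genes (red, chosen with results known) and of 5 lists of related inhibitors and proteases (blue; black bars are list medians) in EKO, MKO and EMdKO. The x axes differ in range, Serpinb3a is left out of MKO, and list medians lie between -0.19 and 0.54 while Stfa3 is at 4.41, -2.10 and 2.24.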

How the data were processed

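Per the labels' protocols, RNA from whole skin of 16 mice was amplified with an Ion AmpliSeq mouse transcriptome kit. The authors deposited raw counts of reads on each RefSeq target. The submitters' processing notes name HTSeq 0.6.0 and DESeq2 1.18.1. The aligner and build are not given in the sources used here. Libraries held 6962474 to 12086327 counts on 23930 targets. The 5 HTSeq summary lines (3.111 to 5.252% of reads) were left out. Symbols came from a RefSeq table of GRCm38.p6 (22448) and GENCODE vM21 (114), and 1368 targets had none.

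Groups came from the labels and mouse numbers from the sample titles. The file names number the MKO and EMdKO mice differently, and that numbering was not tested as a pairing. The main test was the quasi-likelihood test of edgeR 4.0.16 under R 4.3.3 (TMM scaling, its default filter on low counts, 1 mean per group, 12 residual degrees of freedom, biological coefficient of variation 0.31), and a Benjamini-Hochberg adjusted p under 0.05 was called. CPM are TMM-scaled, and log2 CPM used a prior count of 2. The standard error of an edgeR difference is its absolute value over the square root of its quasi-likelihood F, which is approximate at low counts. The fit was tested on simulated data. Alternatives were DESeq2 1.42.0, RLE scaling, library totals, no filter or CPM of 1 in 4 libraries, fits of 2 groups only, a block for mouse number, and each library left out. Count ratios and limits are exact at 95%, a count of 0 allows 3 counts, and both cover counting error only. P-values weigh a group difference against the spread between these mice, which is estimated in part across genes and groups.

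The members and the gene lists were chosen with earlier results of these data known, and the members get no p. Named genes are the members, the 3 list genes with the lowest p in a comparison, and for each family the 8 genes with the highest Pearson r to its mean centred log2 CPM. Figures used matplotlib 3.10.9 and alignments Biopython 1.88 in python 3.11.15.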

Additional observations from a re-analysis of the deposited data

Results flagged for a closer look

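In groups of 4 mice, 9 of 88 group values had a mouse far from the other 3 (by Dixon's ratio of gap to range). Independent values from a normal distribution would pass this cutoff in about 1 of 20 groups. Here some values are skewed or near 0 reads and some lists share genes, so the flags cannot be set against that rate. Stfa1 in control mouse 2 was 36.5 CPM, and the other controls had 0.25 to 4.58. The same mouse had 47.5 CPM of neutrophil-defining markers (other controls 4.62 to 9.44), and MKO mouse 3 had 35.9 (other MKO mice 8.28 to 10.4), of which Retnlg alone gave 26.1, while Cxcr2 had 1 read and S100a8 and Trem1 had 0. Serpinb3a in MKO mouse 2 was 0.126 CPM, which is 1 read where the other MKO mice had 0. MKO mouse 1 had 267 CPM of neutrophil and mast cell serine proteases (others 139 to 144), 354 of mast cell markers (others 193 to 202) and 110800 of skeletal muscle markers (others 38410 to 48060), and it had the lowest Stfa3 of the 16 libraries at 1.88 CPM. Hair markers were 631 CPM in MKO mouse 4 (others 10.4 to 19.1) and 8621 in EMdKO mouse 3 (others 16.8 to 82.4), and EMdKO mouse 3 had the highest Stfa1, Stfa3 and Serpinb3a of its group.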

How the results depend on the processing

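Of 500 recomputed fold changes of the 4 fitted genes, 489 kept their direction and 487 of these moved by less than the spread between mice. Of the 11 that reversed, 10 concern the term beyond the sum of single knockouts. That of Stfa1 (1.57) ranged from -0.91 to 2.79 with 1 library left out, and that of Stfa3 (-0.07) ranged from -0.48 to 0.28 and was 0.31 with the replicate block. The other was Stfa1 in EMdKO against control, which was -0.94 on the log2 scale, 1.53 without control mouse 2 and -1.35 without control mouse 4, the ends of its range with 1 library left out. The log2 ratios of the stefin A and Serpinb3 sums kept their direction and moved by less than that spread with library totals, group medians and each library left out. The number of all genes called depended on the tool and on EKO mouse 1. DESeq2 called 51 genes in EKO against control, 112 in MKO against control (26 higher, 86 lower), 73 in EMdKO against control, 9 in EMdKO against EKO, 146 in EMdKO against MKO and 3 for the term beyond the sum, where edgeR called 0, 4 (4 higher), 4, 2, 1 and 0. With no filter on low counts, edgeR called 3 in EKO against control and 9 in EMdKO against MKO. Fits on the compared groups alone called 1 in MKO against control, 10 in EMdKO against control and 90 in EMdKO against MKO. With each library left out in turn, the counts ranged from 0 to 127, 1 to 5, 2 to 40, 1 to 3, 1 to 95 and 0 to 0 in the order above. The highest values 127, 40 and 95 were those without EKO mouse 1. The cause of these differences was not tested. In the lists, 11 of 575 recomputed counts of called genes changed. Of 24 pairs of same-numbered mice, 7 had a correlation of their deviations over 0.1 (range -0.543 to 0.61). Control mouse 4 had 0.61 with EKO mouse 4 and -0.543 with MKO mouse 4. The labels do not say that the numbers pair the mice, and these correlations cannot exclude it. The fit with the mouse number as a replicate block called 0, 4, 4, 2, 1 and 0 genes. The depth limits what can be said of Serpinb3c, Serpinb3d and, in control and MKO skin, Serpinb3a.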
